A study of Mus musculus with 8 samples.

Results

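The kinesin motor family was followed in 8 mammary tumours that arose spontaneously in mice carrying the neu oncogene, 4 from mice given imiquimod cream and 4 from mice given control cream. All 8 came from mice of the strain FVB/N-TgN (MMTVneu)-202Mul, in which a mouse mammary tumour virus promoter drives the neu oncogene in mammary epithelium, so treated and control tumours share that transgene. Imiquimod is a synthetic agonist of the receptor TLR7, and it was applied topically for 1 cycle. The labels give neither the age of the mice nor the number of animals behind each group. The p-values therefore refer to the scatter among tumours, part of which may be technical. Members of the family were the genes whose symbol starts with Kif and a digit, with Kifc1, Kifc2 and Kifc3, found by the symbol printed beside each probe or by its accession. The rule gave 32 genes with 50 probes, of 18211 genes and 24341 probes on the array, and the brightest probe by mean over the 8 arrays stood for each gene. By main role 10 genes were classed as mitotic kinesins and 14 as transport kinesins, and 8 remained outside both classes. Kif2a and Kif2b, relatives of Kif2c that could also be classed as mitotic, were counted among the 8.

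Kinesins are motors that turn ATP hydrolysis into force on microtubules. Mitotic kinesins build the spindle, move and align chromosomes and form the midzone at which the cell divides, and their transcripts are made mainly in late S, G2 and M phase. Transport kinesins carry vesicles, organelles and ciliary components along microtubules in cells whether or not they divide. Many genes of the first kind carry in their promoters a cell cycle genes homology region (CHR), with the letters TTTGAA, which the MuvB complexes bind, and a CCAAT box, which the factor NF-Y binds.

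Because 6 mitotic kinesins moved together in these tumours, the 150 bases around their start sites are shown, from 120 before to 30 after the start. The sequences are from RefSeq promoters of build GRCm38.p6, written 5′ to 3′ along the gene, with each TTTGAA and each CCAAT in capitals on either strand (TTCAAA and ATTGG on the other strand). Kif3b, the transport kinesin with the smallest p in the expression test, is shown beside them.
Kif22, chr7:127042391-127042540 on the minus strand: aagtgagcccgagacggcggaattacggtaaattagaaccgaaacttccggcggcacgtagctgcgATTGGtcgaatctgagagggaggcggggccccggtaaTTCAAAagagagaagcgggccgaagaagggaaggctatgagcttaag
Kif4, chrX:100625945-100626094 on the plus strand: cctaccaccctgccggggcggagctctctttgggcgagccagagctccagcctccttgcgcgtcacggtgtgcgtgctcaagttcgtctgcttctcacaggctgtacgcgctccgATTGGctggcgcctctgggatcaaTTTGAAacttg
Kif2c, chr4:117178743-117178892 on the minus strand: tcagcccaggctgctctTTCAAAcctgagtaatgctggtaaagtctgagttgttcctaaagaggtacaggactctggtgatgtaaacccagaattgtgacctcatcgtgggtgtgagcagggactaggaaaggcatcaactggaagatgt
Kif18b, chr11:102925095-102925244 on the minus strand: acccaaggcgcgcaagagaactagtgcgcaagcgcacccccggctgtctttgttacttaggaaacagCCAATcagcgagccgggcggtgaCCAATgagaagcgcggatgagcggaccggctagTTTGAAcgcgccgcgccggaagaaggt
Kif23, chr9:61946770-61946919 on the minus strand: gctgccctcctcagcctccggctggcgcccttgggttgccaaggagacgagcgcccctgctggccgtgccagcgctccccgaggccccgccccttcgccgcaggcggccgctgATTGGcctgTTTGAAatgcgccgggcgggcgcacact
Kifc1, chr17:33890604-33890753 on the minus strand: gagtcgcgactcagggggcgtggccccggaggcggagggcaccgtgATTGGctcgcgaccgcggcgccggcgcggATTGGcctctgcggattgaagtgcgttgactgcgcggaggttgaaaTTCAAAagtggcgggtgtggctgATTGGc
Kif3b, chr2:153291296-153291445 on the plus strand: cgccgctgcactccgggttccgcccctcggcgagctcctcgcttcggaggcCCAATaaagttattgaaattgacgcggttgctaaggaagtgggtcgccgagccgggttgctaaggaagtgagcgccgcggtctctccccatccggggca

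A promoter was matched for 25 of the 32 members (250 bases before to 50 after each start). TTTGAA on either strand was found in the promoters of 8 of 9 mitotic kinesins, 1 of 9 transport kinesins and 1 of 7 remaining kinesins, against 17.9% of all 32851 promoters and 20.2% of all 27025 genes with a promoter in the table. All 6 genes that passed the expression test had it. Kif15, which did not pass, and Kif11, too dim for that test, had it too. The mitotic gene without it was Kif18a, and the transport gene with it was Kif1a, in 1 of its promoters. In 7 mitotic genes a match began within 25 bases of the start site. It began at base 4 of the transcript in Kif18b, base 3 in Kif23, base 2 in Kifc1 and base 20 in Kif4, and at -17 in Kif22. In Kif2c the match lay farther upstream, at -103. CCAAT was found in 6 of 9 mitotic, 3 of 9 transport and 3 of 7 remaining kinesins, and in 37.4% of all promoters and 41.1% of all genes. Both motifs stood in 6 of 9 mitotic, 0 of 9 transport and 1 of 7 remaining kinesins (Kif27), and in 6.95% of all promoters and 7.97% of all genes. Related letters were searched too. TTCGAA (1.56% of all promoters) was in 0 of 9 mitotic kinesins and TTTAAA (13.2%) in 1 of 9. Of the E2F-type octamers, TTTGGCGC (0.514% of promoters) was in 2 of 9 mitotic kinesins, and TTCCCGCC (2.19%) and TTTCCCGC (1.07%), which overlap each other in 7 letters, were in 0 of 9. These matches describe letters in a window and were not tested as binding sites.

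**Figure D1:**
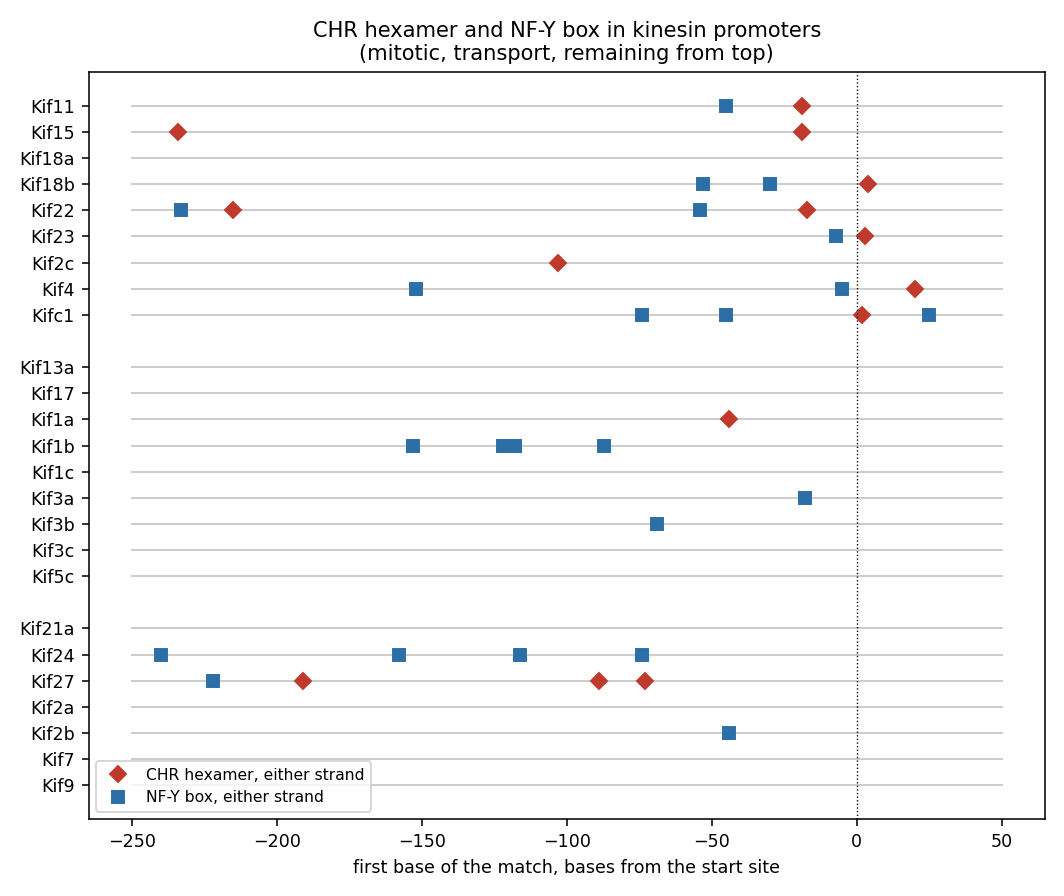
Positions of the CHR hexamer (diamonds) and the CCAAT box bound by NF-Y (squares) on either strand in the promoters of 25 kinesin genes. The horizontal axis gives the first base of a match in bases from the start site, and genes with several promoters are drawn on a single line. Diamonds lie on 8 of the 9 mitotic lines at the top and on 1 of the 9 transport lines in the middle.

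Each array gave a single log2 signal per probe, with a median of 6.82 on every array. The mean correlation of an array ranged from 0.959 to 0.974 with its own group and from 0.923 to 0.958 with the other. The highest value was 14.86 on every control array and 15.07 on every imiquimod array. Whether the groups were processed separately is not known, and an effect of such a step and of treatment cannot be told apart. Probes with a mean under 6.64 were left out of the main test. Of the 32 kinesins 26 passed this filter, namely 8 mitotic, 13 transport and 5 remaining. Log2 differences are given as imiquimod minus control, with limma's standard error (SE), and adjusted p is by Benjamini-Hochberg over all 13143 genes and unnamed probes tested, with a threshold of 0.05.

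Most of the mitotic kinesins tested fell in imiquimod tumours, and of the transport kinesins 0 passed the test. Of the 8 mitotic kinesins tested, 6 fell and 0 rose, where 2.20% of everything tested was called lower and 2.13% higher. Kif2a, counted outside this class, was not called (log2 difference -0.11). Kif22, Kif23, Kif2c, Kif4, Kif18b and Kifc1 were 1.24- to 2.39-fold lower, and in each of the 6 every treated tumour lay below every control tumour, as in 7.11% of everything tested. The lowest treated values of Kif22, Kif2c and Kif23 were 6.78, 6.86 and 6.87, near the array median of 6.82. How far such low signals limit the folds was not tested. Of 13 transport kinesins 0 passed in either direction, where 4.33% of everything tested was called, and at an unadjusted p of 0.05 the number was also 0 (20.5% of everything tested). The median log2 difference was -0.55 over the mitotic, -0.00085 over the transport and -0.021 over all genes and unnamed probes. Within bulk tumour RNA, fewer dividing cells and less kinesin RNA per dividing cell cannot be told apart.

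Among the motors that move chromosomes, Kif22, a chromokinesin that pushes chromosome arms away from the spindle pole, had the largest difference of the family. Its log2 signal was 8.52, 8.55, 8.19 and 8.38 in control tumours 1 to 4 and 7.47, 7.23, 7.13 and 6.78 in imiquimod tumours 1 to 4. Every treated tumour was below every control tumour, with imiquimod 4 the lowest. From means of 8.41 ± 0.16 and 7.15 ± 0.29 (SD, n = 4 each), the log2 signal fell by 1.26 (SE 0.15, limma adjusted p = 0.0041), a 2.39-fold lower signal. The annotation also lists a pseudogene, Kif22-ps, and probe sequences were not used here to see whether the Kif22 probe separates them.

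Kif4, a chromokinesin that also carries the midzone protein Prc1 to the ends of overlapping microtubules, was the member with the smallest p. Its log2 signal was 7.40, 7.58, 7.44 and 7.47 in the controls and 6.83, 6.87, 6.81 and 6.96 with imiquimod. The groups lay apart, and the treated values stood near the array median. From means of 7.47 ± 0.077 and 6.87 ± 0.070 (SD, n = 4 each), the log2 signal fell by 0.61 (SE 0.069, limma adjusted p = 0.00394), a 1.52-fold lower signal. A dimmer second Kif4 probe had a log2 difference of -0.24 with an SE of 0.088 in a fit over all probes without a filter (limma adjusted p = 0.204), and its groups overlapped. A pseudogene, Kif4-ps, is annotated too, and whether the probe separates it was not tested.

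Kif2c (MCAK), which does not walk but removes tubulin from microtubule ends at centromeres to correct faulty attachments, had log2 signals of 7.72, 7.53, 7.61 and 7.91 in the controls. With imiquimod they were 7.17, 7.05, 6.95 and 6.86. The groups did not overlap. From means of 7.69 ± 0.16 and 7.01 ± 0.14 (SD, n = 4 each), the log2 signal fell by 0.69 (SE 0.10, limma adjusted p = 0.00984), a 1.61-fold lower signal.

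Kif18b, a kinesin-8 that limits the length of astral microtubules, had log2 signals of 7.50, 7.86, 7.48 and 7.64 in the controls and 7.29, 7.25, 6.91 and 7.02 with imiquimod. The groups did not overlap, and control 3 and imiquimod 1 were the closest tumours. From means of 7.62 ± 0.17 and 7.12 ± 0.18 (SD, n = 4 each), the log2 signal fell by 0.50 (SE 0.12, limma adjusted p = 0.0484), close to the threshold. A second Kif18b probe gave a log2 difference of -0.38 (SE 0.079, limma adjusted p = 0.0399 over all probes). The main probe lost its call without any tumour other than imiquimod 1, with adjusted p between 0.0644 and 0.122.

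Kif23 (MKLP1), which with Racgap1 forms the centralspindlin complex of the dividing cell's midzone, was measured by 1 probe. Its log2 signal was 7.58, 7.90, 7.64 and 7.70 in the controls and 7.12, 6.87, 6.91 and 7.04 with imiquimod. The groups did not overlap. From means of 7.70 ± 0.14 and 6.99 ± 0.12 (SD, n = 4 each), the log2 signal fell by 0.72 (SE 0.092, limma adjusted p = 0.00513), a 1.64-fold lower signal.

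Kifc1, a minus-end motor that gathers spindle poles and extra centrosomes, had log2 signals of 7.25, 7.22, 7.08 and 7.26 in the controls and 6.89, 6.93, 6.90 and 6.84 with imiquimod. The groups did not overlap, and the treated tumours lay within a narrow band just above the array median. From means of 7.20 ± 0.086 and 6.89 ± 0.041 (SD, n = 4 each), the log2 signal fell by 0.31 (SE 0.067, limma adjusted p = 0.0364), a 1.24-fold lower signal. Its call was lost without control 1, 2 or 4 or without any imiquimod tumour, with adjusted p between 0.0517 and 0.0985. A dimmer Kifc1 probe below the filter had a log2 difference of -0.21 (limma adjusted p = 0.314 over all probes). Kifc5b, a near-identical copy of Kifc1 on the same chromosome, falls outside the rule, and whether the probes separate the copies was not tested. The brighter Kifc5b probe fell by 0.71 on the log2 scale (SE 0.15, limma adjusted p = 0.0349), and a dim second one had a log2 difference of 0.11.

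**Figure D2:**
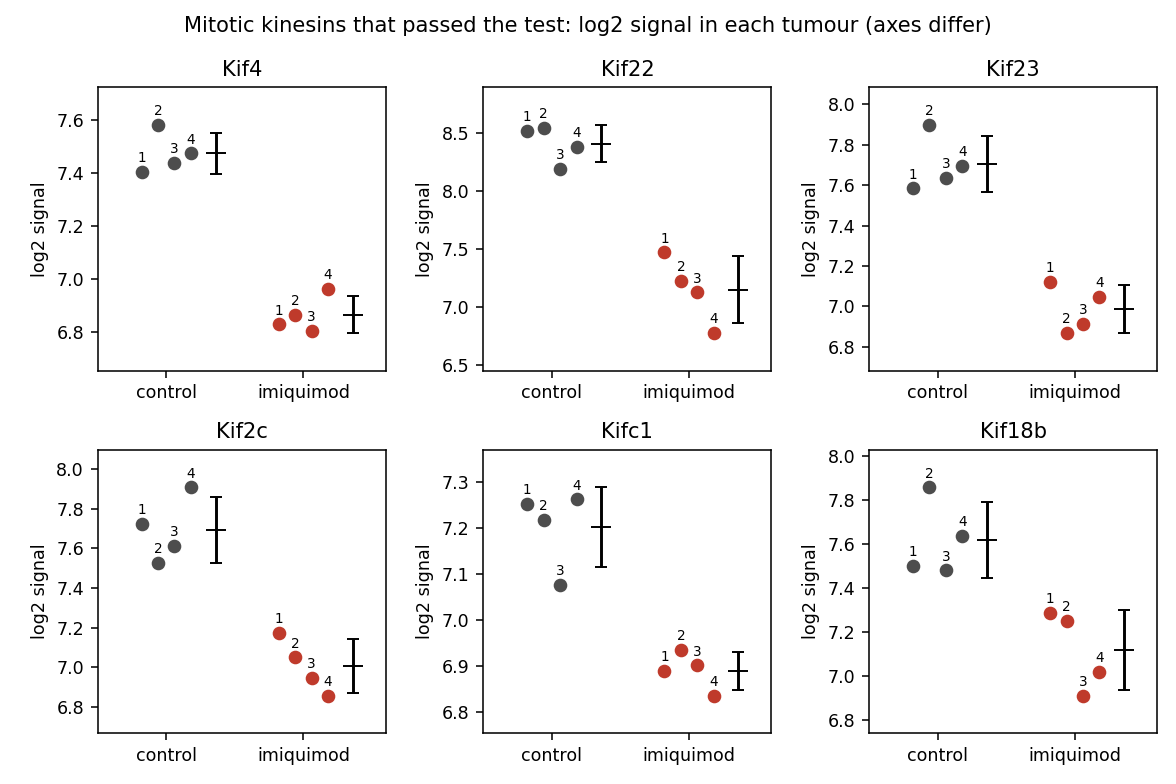
Log2 signal (vertical axis, a range of its own in each panel) of the 6 mitotic kinesins that passed the test, with a numbered point for each of the 4 control and 4 imiquimod tumours. Bars give the mean and SD of each group. In all 6 panels every imiquimod tumour lies below every control tumour.

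The other mitotic kinesins were dim. Kif20a (MKLP2), which relocates the chromosomal passenger complex to the midzone, had log2 signals of 6.68, 6.82, 6.58 and 6.64 in the controls and 6.70, 6.49, 6.77 and 6.45 with imiquimod. The groups overlapped, and the 95% interval of the difference ran from -0.29 to 0.13 (limma adjusted p = 0.699). Kif15, a kinesin-12 that helps to keep the spindle bipolar, had a log2 difference of -0.078 on its brightest probe, with a 95% interval from -0.31 to 0.15 (limma adjusted p = 0.723). Kif11 (Eg5), the kinesin-5 that pushes spindle poles apart, and Kif18a, a kinesin-8 that dampens chromosome oscillation, did not pass the filter. In the fit over all probes their log2 differences were -0.11 (limma adjusted p = 0.63) and -0.034 (limma adjusted p = 0.926). With probe means of 6.58 and 6.638, below the array median, changes of either motor may not be detectable. Over all 15 mitotic probes without a filter, 7 were called lower, where 1.31% of all probes were. The 5 dim ones among the 15 had log2 differences from -0.21 to 0.087.

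Of 3 further kinesins that the array names by older symbols and the rule does not cover, 2 are mitotic. Kif20b, a cytokinesis motor, had a log2 difference of -0.27 (limma adjusted p = 0.171), and imiquimod 1 lay within the control range. Kif14, another cytokinesis motor, was below the filter at a mean of 6.444 (log2 difference -0.043). Kif26b, the remaining one, had a log2 difference of 0.070 (limma adjusted p = 0.773). The centromere motor Cenpe, a kinesin whose symbol falls outside the rule, had -0.037 (limma adjusted p = 0.859) at control and imiquimod means of 6.68 and 6.64, also dim.

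Transport kinesins overlapped between the groups in all 13 genes tested, where 12.6% of everything tested did not overlap. Kif3a and Kif3b form the heterotrimeric kinesin-2 that moves cargo into the cilium. Kif3b had log2 signals of 7.52, 7.62, 7.68 and 7.50 in the controls and 7.80, 7.80, 7.58 and 7.76 with imiquimod. Of the treated tumours only imiquimod 3 lay within the control range. The log2 difference was 0.15, with a 95% interval from -0.024 to 0.33 (limma adjusted p = 0.313). Kif3a had log2 signals between 8.16 and 8.70 in the controls and between 8.34 and 8.60 with imiquimod. The difference was 0.074 (95% interval -0.20 to 0.35), and a second Kif3a probe gave 0.12. Kif3c, a kinesin-2 subunit abundant in neurons, had a log2 difference of -0.00085 (95% interval -0.33 to 0.33), and its second probe gave -0.15.

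Kif1b, a kinesin-3 that carries mitochondria and synaptic vesicle precursors, had log2 signals of 8.92, 8.13, 8.88 and 8.80 in the controls and 8.66, 9.38, 8.92 and 8.83 with imiquimod. The groups overlapped, control 2 being low and imiquimod 2 high. The log2 difference of 0.27 had a 95% interval from -0.20 to 0.73 (limma adjusted p = 0.521), and the other 3 Kif1b probes gave 0.21, 0.12 and 0.089. The Kif1b difference was 0.082 without control 2 and 0.12 without imiquimod 2. Kif5c, a conventional kinesin heavy chain enriched in neurons, had the lowest difference of the class. Its log2 signals were 8.31, 7.58, 7.72 and 7.65 in the controls and 7.21, 7.41, 8.08 and 7.58 with imiquimod. Control 1 and imiquimod 3 stood above the rest, and their median skeletal muscle marker deviations were 0.65 and 2.56. Imiquimod 4, with a muscle deviation of 2.13, had a Kif5c signal level with the remaining tumours. Whether muscle content relates to the Kif5c signal was not tested. The log2 difference was -0.24, with a 95% interval from -0.73 to 0.24 (limma adjusted p = 0.576). It was -0.077 without control 1, -0.12 without imiquimod 1 and -0.41 without imiquimod 3. Kif5b, the ubiquitous conventional kinesin heavy chain, was below the filter on both of its probes (log2 differences 0.11 and -0.10), and the neuronal form Kif5a had -0.016.

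The other transport kinesins lay close to 0. Kif1c, a motor of Golgi and integrin transport, had a log2 difference of -0.069, and the axonal motor Kif1a had -0.062. Kif13a, an endosome motor, and Kif13b, which binds the scaffold Dlg1, had 0.0036 and 0.065. Kif17, a homodimeric kinesin-2, had 0.10, with imiquimod values between 6.72 and 6.75. The minus-end motors Kifc2 and Kifc3, the latter found at epithelial junctions, had -0.031 and -0.077. Several of these probes were dim, and the precision differed between genes. The 95% intervals were widest for Kif5c and Kif1b, and those of the other 11 genes tested lay within -0.35 (Kifc3) and 0.35 (Kif3a). Over all 23 transport probes without a filter, 0 were called in either direction, where 2.64% of all probes were.

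**Figure D3:**
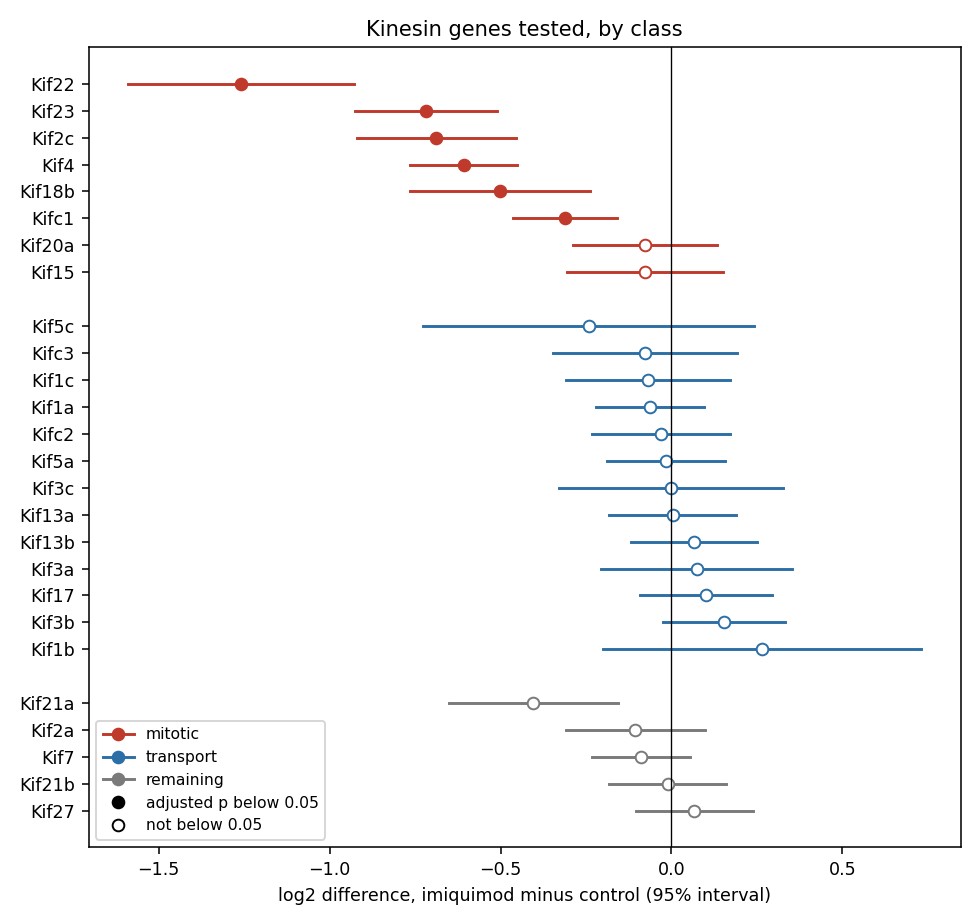
Log2 difference, imiquimod minus control, with its 95% interval for the 26 kinesin genes tested, in 3 classes. Filled points passed the threshold. The 6 filled points are all mitotic and lie left of 0, while the intervals of all 13 transport kinesins cross 0.

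Of the 5 remaining kinesins tested, 0 passed, where 4.33% of everything tested was called, a share at which so few genes say little. Kif21a, which restrains microtubule growth at the cell cortex, had log2 signals of 7.88, 8.33, 7.98 and 7.92 in the controls and 7.71, 7.67, 7.64 and 7.47 with imiquimod. The groups did not overlap, as in 7.11% of everything tested with the lower values in treated tumours. The log2 difference was -0.40 (SE 0.11), with a 95% interval from -0.65 to -0.16, and it did not pass over all genes (limma adjusted p = 0.0737). Its paralogue Kif21b had -0.011 on the brightest of 3 probes. Kif2a, a tubulin-removing motor of the same subfamily as Kif2c, had -0.11 (95% interval -0.31 to 0.097). Kif7, a ciliary regulator of Hedgehog signalling, and its relative Kif27 had -0.088 and 0.067. Kif2b, a relative of Kif2c, Kif9, a motor of sperm and cilia, and Kif24, which restrains cilium formation, did not pass the filter, with log2 differences of -0.066, -0.026 and -0.12 in the fit over all probes.

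Most of the genes listed as working with the mitotic kinesins were also lower. Of 16 mitotic partner genes, among which Cenpe was counted, 9 fell and 0 rose, with a median log2 difference of -0.73. Of everything tested 2.20% was called lower and 2.13% higher, which is the background for this count and for the S phase and G2 and M phase counts that follow. Prc1, the cargo of Kif4, had log2 signals of 10.07, 10.33, 10.02 and 10.37 in the controls and 8.97, 8.68, 8.56 and 8.37 with imiquimod. The groups lay far apart, with a log2 difference of -1.55 (SE 0.14). The spindle assembly factor Tpx2 had -0.94 (SE 0.071), the mitotic kinase Plk1 -1.59 (SE 0.16) and the passenger protein Birc5 -1.40 (SE 0.15), and limma adjusted p for these 4 lay between 0.000816 and 0.00302. The partner of Kif23 in centralspindlin, Racgap1, had a log2 difference of -0.26 that did not pass (limma adjusted p = 0.0682), at a control mean of 6.85. Cenpe, Hmmr and Ect2 lay near 0, with log2 differences of -0.037, -0.065 and -0.0023. Genes of S phase, before the mitotic kinesins act, were lower too. Of 14 tested 8 fell and 0 rose, with a median of -0.75, among them Mcm5, Mcm6, Rrm1 and Rfc4 (log2 differences -0.99, -1.02, -1.04 and -0.81). Of 11 genes of G2 and M phase 8 fell and 0 rose, with a median of -1.11. The examples with the smallest p were Mki67, Bub1b, Ccnb1 and Cdc20 (log2 differences -1.23, -0.86, -1.11 and -1.37).

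Partners of the transport kinesins did not pass. Of 24 tested, which include kinesin light chains, the kinesin-2 subunit Kifap3, cargo adaptors, dynein and dynactin, 0 rose and 0 fell, with a median log2 difference of 0.054. At an unadjusted p of 0.05 the number was 8, where 20.5% of everything tested passed, and in 4 of the 24 every treated tumour lay above every control tumour, as in 5.52% of everything tested. For called counts, here and for the tubulins below, the share over everything tested was 4.33% in either direction and 2.20% lower. The nearest to the threshold was the adaptor Mapk8ip1 (JIP1), at -0.58 (SE 0.14, limma adjusted p = 0.055). It passed without imiquimod 1 (-0.70, adjusted p = 0.0131). The dynein light intermediate chain Dync1li1 (0.24), the adaptor Rab11fip5 (0.55) and the dynein intermediate chain Dync1i2 (0.20) followed, with limma adjusted p from 0.0654 to 0.147. The light chains Klc1 and Klc2, which couple kinesin-1 to cargo, had 0.084 and 0.029, and Kifap3 had -0.078. Of 13 tubulin genes 1 fell, Tubb4b, a widely expressed beta-tubulin (-0.83, SE 0.13, limma adjusted p = 0.013). Tubg1, of the gamma-tubulin that nucleates spindle microtubules, had -0.61 (adjusted p = 0.0613), while Tubb5 and Tuba1c had -0.45 and -0.27.

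Tumour by tumour, the median deviation of the mitotic kinesins from the control mean was 0.015, 0.12, -0.11 and 0.0091 in control tumours 1 to 4. With imiquimod it was -0.43, -0.49, -0.69 and -0.56. The transport kinesins in the same imiquimod tumours had 0.0095, 0.020, -0.0017 and 0.037. Each treated tumour thus showed the low mitotic class beside a transport class near its control level. The difference between the classes was not tested, since their members were chosen with earlier results of these data known.

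**Figure D4:**
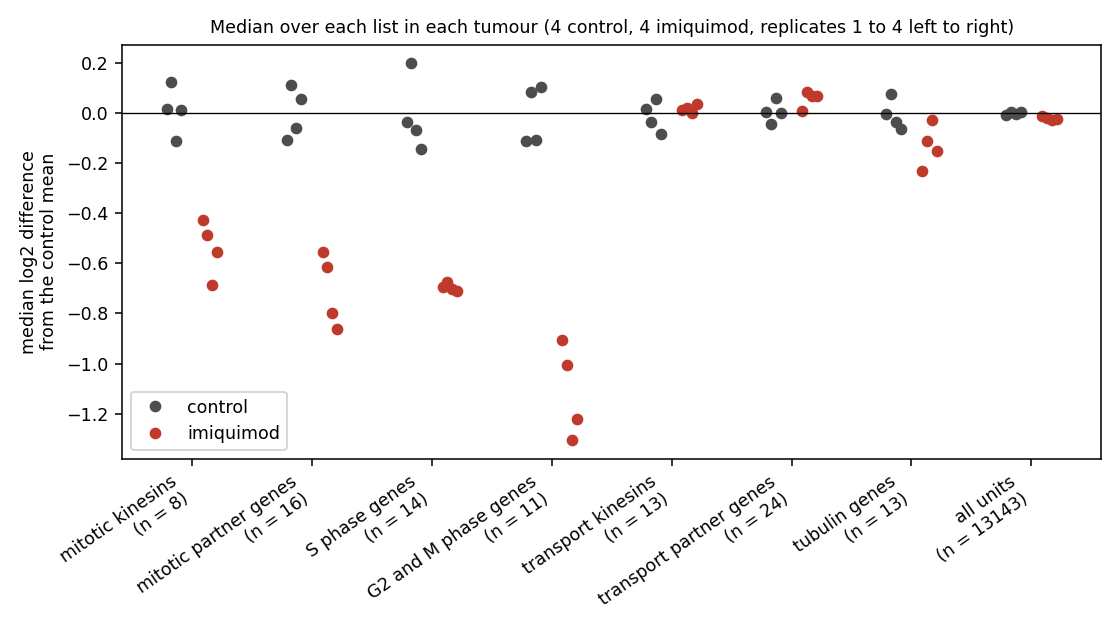
Median log2 deviation from the control mean over the tested members of each list, for 4 control and 4 imiquimod tumours. Mitotic kinesins lie between -0.69 and -0.43 in the imiquimod tumours, below the controls, as do mitotic partners, S phase and G2 and M phase genes, while transport kinesins lie between -0.0017 and 0.037.

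Markers of some other cell types moved in the same tumours. For the marker counts below, the background is 2.13% of everything tested called higher and 2.20% lower. At these shares 0 calls in so short a list says little. Luminal epithelial markers, which define the tumour tissue, were present at a median control log2 signal of 10.29, and 0 of 8 passed, with a median log2 difference of -0.027. Their summed signal lay between 11689 and 15898 in the controls and between 10448 and 14777 with imiquimod, so the groups overlapped. Of 10 macrophage markers 6 rose and 0 fell, and the summed signal of the 10 went from between 2999 and 4544 to between 7026 and 13239. Csf1r, Lyz2, Cd68 and Fcgr3 did not pass, with log2 differences of 0.056, 0.21, 0.66 and 0.87. Whether the sum follows the number of macrophages was not tested. Of 7 fibroblast markers 1 rose (summed signal 773 to 1082 in controls, 1045 to 3374 with imiquimod). Of 3 keratinocyte markers tested 1 rose, Krt14, the sum ranging from 348 to 403 in controls and from 444 to 1395 with imiquimod. The median keratinocyte deviation was 1.57 in imiquimod 1 and -0.017, 0.048 and 0.10 in imiquimod 2 to 4. Skeletal muscle markers (0 of 7 passed) summed to between 645 and 1570 in controls and to between 698 and 8464 with imiquimod, being high in imiquimod 3 and 4. T cell (5), endothelial (5), adipocyte (5), milk (6) and neuron (3) markers had 0 calls. Milk markers still differed widely between tumours, summing to 19800 to 36135 in controls and 18152 to 91549 with imiquimod. The milk gene Wap had log2 signals of 7.71, 14.51, 10.76 and 8.32 in imiquimod tumours 1 to 4. Adipocyte markers summed to 661 to 774 in controls and 680 to 2578 with imiquimod. Tubb3, Map2 and Nefl, the neuronal markers tested, had control means of 7.48, 6.89 and 6.70. The part of these other cells in the kinesin differences was not tested.

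Without imiquimod 3 and 4, the tumours with the most muscle signal, 2 of the 8 mitotic kinesins passed, Kif22 (-1.06, limma adjusted p = 0.0259) and Kif4 (-0.63, limma adjusted p = 0.0334). The number called over all genes then fell from 569 to 112. Kif23 had -0.71 (adjusted p = 0.065), Kif2c -0.58 (adjusted p = 0.106), Kif18b -0.35 (adjusted p = 0.334) and Kifc1 -0.29 (adjusted p = 0.275). The median of the mitotic class was -0.47 in the tumours that were left, and 4 of the 6 calls were lost. The log2 differences of the 6 genes were below 0 in all 20 alternatives.

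**Figure D5:**
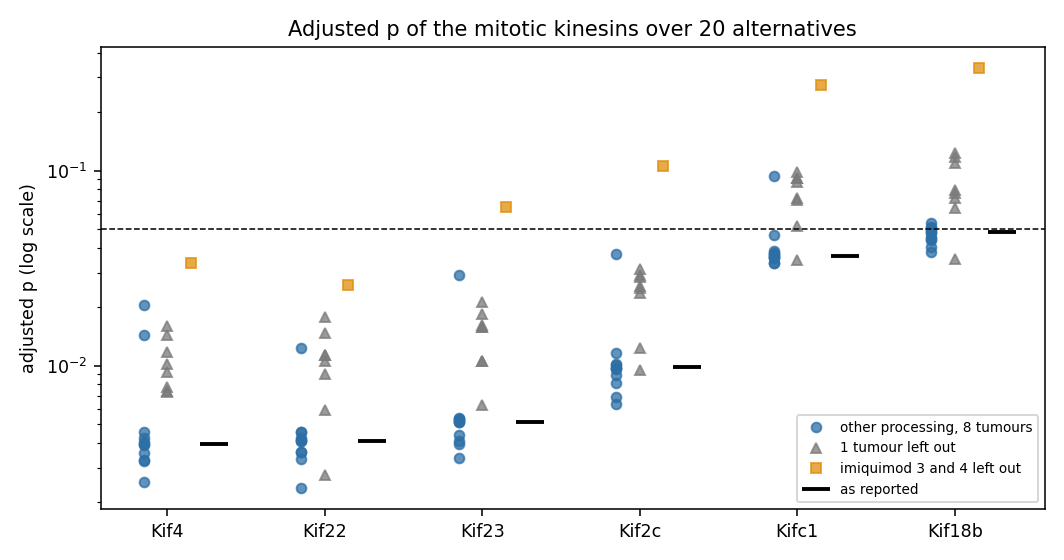
Adjusted p (vertical log axis) of the 6 mitotic kinesins over 20 alternatives, as circles for other processing of all 8 tumours, triangles for 1 tumour left out and squares for imiquimod 3 and 4 left out together, with a black dash for the reported value. The dashed line is the threshold of 0.05. Kif22 and Kif4 stay below the line throughout, and Kifc1 and Kif18b lie on both sides of it.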

How the data were processed

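Per the labels' protocols, total RNA of 8 tumours (4 control, 4 imiquimod) was amplified to biotin-labelled cRNA for Illumina bead arrays. The authors deposited log2 signals, whose medians are equal to 2 decimals on all arrays. The tool affy is listed in the submitters' processing notes without a role. How background and normalization were handled is not given in the sources used here. With 4 arrays a group, the number of arrays limits precision. The non-normalized table holds 16 columns of per-sample values under running numbers that match no label, so its signals were not used, only its accessions and symbols. Of 24341 probes, 20038 were named by accession, 1620 by current symbol, 1736 by synonym and 692 by the file's symbol, and 255 had no name.

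The 1 in 3 probes with the lowest mean were left out (16228 kept), the brightest probe represented each gene (13007 named genes, 136 unnamed probes), and limma 3.58.1 in R 4.3.3 (lmFit, eBayes, two-sided, no covariates) compared the groups. The procedure was also run on simulated, independent normal values with only upward shifts, which differ from these arrays and cannot vouch for the calls made here. Members, gene lists and motifs were chosen with earlier results of these data known. All members are named, with the 4 of each context list that had the smallest p, and Cenpe; further genes (such as Racgap1, Klc1 and Kifap3) were chosen after their values were seen. Alternatives covered normalization, background, filter, variance model, array weights, probe choice, the replicate block and tumours left out. Counting synonym-named kinesins was added after seeing the data.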

Additional observations from a re-analysis of the deposited data

Results flagged for a closer look

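Of 52 sets of 4 values (26 kinesins in each group), 4 had a tumour far from the other 3 by Dixon's criterion, while chance flags about 1 in 20. Kif15 was 6.56 in control 3 and 6.88 to 6.94 in the other controls. Kif1a was 7.11 in the same tumour against 6.98 to 7.003. Kif1b was 8.13 in control 2 against 8.80 to 8.92, and Kif2a was 6.83 in imiquimod 2 against 6.64 to 6.67. None of the 4 genes passed the test between groups.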

How the results depend on the processing

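The count of mitotic kinesins past the threshold was 4 to 6 over the alternatives that kept at least 7 tumours, and 2 without imiquimod 3 and 4; the replicate block gave 4, Kif18b (adjusted p = 0.0509) and Kifc1 (adjusted p = 0.0933) losing their calls, and cyclic loess and no filter gave 5 each, Kif18b having adjusted p = 0.0539 and 0.0511. Counting synonym-named kinesins gave 6. With a tumour left out in turn the count ranged from 4 to 5 and the median from -0.59 to -0.50. That median was -0.41 with no filter on dim probes, which adds dim members by construction, and -0.43 with the mean of the kept probes. Over the 20 alternatives, 98 of 120 values of the 6 kinesins kept their side of the threshold, and all 392 values of the 20 others tested did. Transport and remaining kinesins had 0 calls in all. Same-numbered tumours did not deviate together (correlations -0.021 to 0.035), so the replicate numbers were not taken as pairs. Over all genes the count ranged from 278 (without imiquimod 3) to 911 (without imiquimod 1) with a tumour left out, was over 1.5 times lower than 569 also without control 1, 3 or 4 or imiquimod 2 or 4 (308, 379, 296, 299 and 314), and was 112 without imiquimod 3 and 4. That last setting, with fewer samples, gave 5 mitotic partners, 0 tubulin genes, 3 S phase genes and 5 genes of G2 and M phase. With a tumour left out these lists had 7 to 9, 1 to 3, 6 to 10 and 8 calls. The 3 tubulin calls came without control 1. Transport partners had 1 call with array weights and 0 to 2 with a tumour left out (2 without imiquimod 1), and tubulin genes 2 with the replicate block. Among named genes, Tubb4b (adjusted p = 0.108) and Rrm1 (0.0568) lost their calls without imiquimod 3 and 4, Tubb5 passed without control 1 (0.0442), Tubg1 with the replicate block (0.0482) and Mapk8ip1 with array weights (0.0446). The cause of these changes was not tested. Dim probes near the array median limit what can be said of Kif11, Kif15, Kif18a, Kif20a and Kif5b. The same limit holds for the transport kinesins Kif1c, Kif5a, Kif17 and Kifc2 and for Kif2a, Kif7 and Kif27. Their means over the 8 arrays ran from 6.67 (Kif27) to 6.83 (Kif1c), so a missing call of these genes says little.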
